A study of Arabidopsis thaliana with 12 samples.

Results

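The 29 Aux/IAA genes and 5 GH3 genes (GH3.1, GH3.2, GH3.3, GH3.5 and GH3.6) of Arabidopsis thaliana were read from a table of RNA-seq counts for 32833 loci, and all 34 were found there by their locus numbers. The tissue came from wild-type Col-0 seedlings at 7 DAS, held for 1 h on mock plates or on plates with CNQX at 50 µM, a compound known from animals as a blocker of ionotropic glutamate receptors. The lowest 130 µm or so of each root was cut off on those plates, and the plants were moved to fresh medium. The 100 µm of root above the wound was taken 30 min, 4 h, 14 h or 24 h later, giving 1 library for each treatment at each time. Plants left uncut remained on CNQX or mock plates for 14 h before their own lowest 100 µm was taken, with 2 libraries per treatment. The sample labels name 24 h as the last time and were followed, where the series description names 16 h. Uncut tissue was therefore a root tip, and cut tissue came from higher up the root, so wounding and position along the root cannot be told apart in any comparison with uncut roots. Cut plants were moved to fresh medium while uncut plants stayed on their plates, so medium cannot be told apart from wounding either. Uncut roots were taken after 14 h only, so the comparisons at other times also differ in time of sampling. Between late and early cut roots, time since excision and plant age go together. Nor can fewer cells of a type be told from less RNA per cell in such bulk tissue.

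Auxin acts on these genes through a short pathway. The hormone joins a TIR1/AFB receptor to an Aux/IAA protein at a short stretch called the degron, the Aux/IAA protein is destroyed, and the ARF transcription factors it had held in check, together with TPL/TPR corepressors, are released. Many Aux/IAA genes are themselves ARF targets, which makes them feedback repressors, and several, among them IAA14 and IAA28, are known from dominant mutants that lack lateral roots. The GH3 enzymes considered here join auxin to amino acids and so lower free auxin, and their genes are widely used as reporters of auxin response.

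The degron core was taken here as a run of 5 residues: glycine, tryptophan, proline, proline and valine. It was present in 17 of the 29 Aux/IAA proteins and in no other protein translated from the RefSeq annotation of TAIR10.1 (17 of 27444 genes). A further 6 members carry its first 4 residues followed by another one, isoleucine in IAA8, IAA11, IAA12, IAA13 and IAA27 and leucine in IAA10. The remaining 6 (IAA20, IAA30, IAA31, IAA32, IAA33 and IAA34) have no such stretch. The coding strand around the core is shown 5′ to 3′ for the 4 core-bearing genes that rose after excision and for 2 with a changed last codon, with the 5 core codons in capitals.
IAA28 (chr5:9033815-9033841, plus strand): gtggtgGGATGGCCGCCGGTGagatca
IAA17 (chr1:1136941-1136967, plus strand): gttgtgGGATGGCCACCGGTGagatca
IAA2 (chr3:8181387-8181413, minus strand): atcgttGGTTGGCCACCAGTGagatct
IAA14 (chr4:8349478-8349504, minus strand): gtggtgGGTTGGCCACCGGTGaggaac
IAA8 (chr2:9637728-9637754, plus strand): gttgttGGTTGGCCTCCAATCagatca
IAA10 (chr1:1060331-1060357, plus strand): gctgtaGGTTGGCCGCCTCTAcggact
The first 4 end in a valine codon, while the last capital codon of IAA8 encodes isoleucine and that of IAA10 leucine.

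ARF proteins bind the letters TGTCTC and TGTCGG. In the 250 bases before the annotated gene start, on either strand, TGTCTC was found in 12 of 34 members (35.3%) and in 10.9% of 27443 promoters of the same length. TGTCGG was found in 6 members (17.6%) and in 4.16% of all promoters. The wider pattern TGTCNN, which includes both, occurred in 29 members (85.3%) and 74.5% of all promoters. Of the 16 members that passed at least 1 test below, 6 held TGTCTC (IAA8, IAA19, IAA32, GH3.2, GH3.3 and GH3.5), 0 held TGTCGG and 15 held TGTCNN. The promoters of the 3 GH3 genes of that group and of IAA19, which has the letters 3 times, are shown in the direction of transcription with TGTCTC in capitals.
GH3.2 (chr4:17579368-17579617, plus strand): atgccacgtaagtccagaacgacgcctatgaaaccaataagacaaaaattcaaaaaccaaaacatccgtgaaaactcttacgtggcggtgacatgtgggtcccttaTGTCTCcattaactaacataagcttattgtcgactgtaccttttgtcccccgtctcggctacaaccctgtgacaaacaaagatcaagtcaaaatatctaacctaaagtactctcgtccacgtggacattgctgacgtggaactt
GH3.3 (chr2:9866563-9866812, minus strand): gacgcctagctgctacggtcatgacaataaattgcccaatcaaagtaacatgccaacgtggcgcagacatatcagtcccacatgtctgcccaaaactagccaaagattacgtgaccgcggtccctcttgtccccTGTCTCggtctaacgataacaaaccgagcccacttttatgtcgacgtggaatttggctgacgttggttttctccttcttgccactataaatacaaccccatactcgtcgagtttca
GH3.5 (chr4:13653329-13653578, plus strand): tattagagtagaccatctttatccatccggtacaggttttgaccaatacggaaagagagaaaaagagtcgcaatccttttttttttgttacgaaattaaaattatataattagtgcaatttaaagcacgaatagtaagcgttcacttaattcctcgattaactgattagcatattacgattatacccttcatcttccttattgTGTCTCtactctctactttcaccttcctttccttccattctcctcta
IAA19 (chr3:5263751-5264000, plus strand): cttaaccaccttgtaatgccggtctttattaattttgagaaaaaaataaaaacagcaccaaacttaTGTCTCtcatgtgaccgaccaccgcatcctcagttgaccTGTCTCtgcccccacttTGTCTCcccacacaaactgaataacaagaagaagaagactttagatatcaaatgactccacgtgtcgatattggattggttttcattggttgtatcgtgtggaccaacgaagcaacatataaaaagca
A match in these windows is a description of the letters and was not tested as a binding site.

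The libraries held 1575446 to 3302325 counts each. Levels are given as CPM, the counts scaled to a common library size, after TMM scaling, and changes as log2 fold changes ± standard error from edgeR's quasi-likelihood test over 16820 loci and all 12 libraries, with Benjamini-Hochberg adjustment over all loci and a threshold of 0.05. Of the 34 members, 24 had enough counts to be tested (19 Aux/IAA and all 5 GH3), and 16 of these passed at least 1 comparison. GH3.1, GH3.2, GH3.3, IAA10 and IAA18 reached 10 counts in cut libraries only, and IAA32 and IAA33 in uncut libraries only. These members therefore entered the test through the group in which they were high. The mock 24 h library stood apart: its log values correlated at 0.671 with the mean of the others, against 0.844 to 0.952 for the other 11, and 37.6% of its reads were counted as not unique against 53.3% to 65.3%. Results at 24 h are therefore also given without it. The comparison for excision (mean of the 4 cut times against uncut) and those of the 4 single times all share the same uncut libraries. The comparison of late with early cut roots has no uncut library on either side. It reuses the 14 h and 24 h libraries and takes its spread from the same fit, so it is not independent of the others.

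The GH3 genes rose late. GH3.2, GH3.3, GH3.5 and GH3.6 were higher at 14 h and at 24 h than in uncut tips, and higher in the late (14 h and 24 h) than in the early (30 min and 4 h) cut roots, whereas none of the 5 GH3 genes passed the test at 30 min or 4 h. Summed over the 5 genes, the level was 11.1 to 20.4 CPM in the 4 uncut libraries, 12.5 to 22.3 CPM in the 4 early libraries and 55.2 to 128 CPM in the 4 late libraries. In the following, mock values precede CNQX values at each time.

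GH3.5 (AT4G27260, chr4:13653579-13656285) was at 5.54 and 5.11 CPM in the mock uncut libraries and at 5.73 and 6.58 CPM in the CNQX uncut libraries. It was at 3.42 and 1.57 CPM at 30 min, 3.597 and 9.56 CPM at 4 h, 55.8 and 24.9 CPM at 14 h, and 59.0 and 51.3 CPM at 24 h. All 4 late libraries lay above every uncut and early library. The log2 fold change was 2.76 ± 0.46 at 14 h (adjusted p = 0.00146), 3.25 ± 0.46 at 24 h (adjusted p = 0.000234) and 3.502 ± 0.44 for late against early (adjusted p = 0.000245). The 24 h and the late against early calls held when any 1 library was left out. The 14 h call was lost without the mock 14 h library (2.05, adjusted p = 0.12). The change for excision was 1.25 ± 0.39 (adjusted p = 0.0322), a call kept only where the library left out was the mock 4 h, mock 24 h, CNQX 30 min, CNQX 14 h or CNQX 24 h one (adjusted p = 0.0706 to 0.124 in the other 7 cases).

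GH3.6 (AT5G54510, chr5:22130964-22133688) rose at the same times. It was at 10.2 and 3.83 CPM in the mock uncut libraries and 10.2 and 2.82 CPM in the CNQX uncut libraries, then at 5.69 and 4.31 CPM at 30 min, 10.8 and 11.4 CPM at 4 h, 31.7 and 17.4 CPM at 14 h, and 56.3 and 28.7 CPM at 24 h. Its late libraries also lay above all others, and the mock library was the higher at both late times. The change was 1.81 ± 0.51 at 14 h (adjusted p = 0.0300), 2.59 ± 0.50 at 24 h (adjusted p = 0.00208) and 2.04 ± 0.45 for late against early (adjusted p = 0.00730). The 24 h call held without any 1 library. The 14 h call was lost without the mock 14 h, CNQX 14 h, second mock uncut or second CNQX uncut library (adjusted p = 0.337, 0.149, 0.0667 and 0.0854), and the late against early call without the mock 30 min library (adjusted p = 0.0506).

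GH3.3 (AT2G23170, chr2:9863855-9866562) had 0 counts in all 4 uncut libraries and in both mock early libraries, and 0.392 and 0.911 CPM in the CNQX libraries at 30 min and 4 h. It reached 6.77 and 6.47 CPM at 14 h and 6.25 and 7.73 CPM at 24 h, so the 4 late libraries were close together and above all the others. Against a floor of 3 counts over the uncut group, it was at least 20.9-fold higher at 14 h (adjusted p = 0.00496) and at least 21.6-fold higher at 24 h (adjusted p = 0.00253). Late against early, 61 counts stood against 3, a ratio of 18.9 (95% counting interval 6.19 to 94.4, adjusted p = 0.00995). The 24 h call held without any 1 library. The 14 h call was lost without the mock 14 h library (adjusted p = 0.115), and the late against early call without the mock 14 h or the mock 30 min library (adjusted p = 0.0561 and 0.0616). Averaged over the cut times it was at least 11.5-fold higher than uncut (adjusted p = 0.0333), a call kept only without the mock 30 min, mock 4 h or CNQX 24 h library (adjusted p up to 1 in the other 9 cases).

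GH3.2 (AT4G37390, chr4:17579618-17582022) had 0 counts in all 4 early libraries and 0.292, 0.426, 0 and 0.470 CPM in the 2 mock and 2 CNQX uncut libraries. It was at 3.38 and 5.47 CPM at 14 h and 6.25 and 5.52 CPM at 24 h, again with every late library above every other one. Late against early it was at least 14.6-fold higher by the floor of 3 counts over the early group (adjusted p = 0.00511), a call that held without any 1 library. Against the 3 uncut counts the ratio was 13.7 at 14 h (4.04 to 72.4, adjusted p = 0.0374) and 18.9 at 24 h (5.82 to 96.9, adjusted p = 0.0111). The 24 h call was lost without the mock 24 h library (adjusted p = 0.211), and the 14 h call was kept only where the library left out was the mock 4 h or the CNQX 4 h one (adjusted p = 0.0552 to 0.356 in the other 10 cases).

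GH3.1 (AT2G14960) did not follow this course. It was at 1.17 to 4.45 CPM in the uncut libraries and above all of them at 30 min (6.26 and 6.27 CPM). At 4 h (1.03 and 0.455 CPM) and 24 h (0 and 0.552 CPM) it was below all of them. These are few counts, with 24 over the uncut libraries, 3 at 4 h and 1 at 24 h. At 14 h it stood at 18.6 CPM (44 counts) in the mock library against 0.995 CPM (2 counts) in the CNQX library. With 1 library on each side that difference has no replicate check, and GH3.1 passed no comparison.

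**Figure D1:**
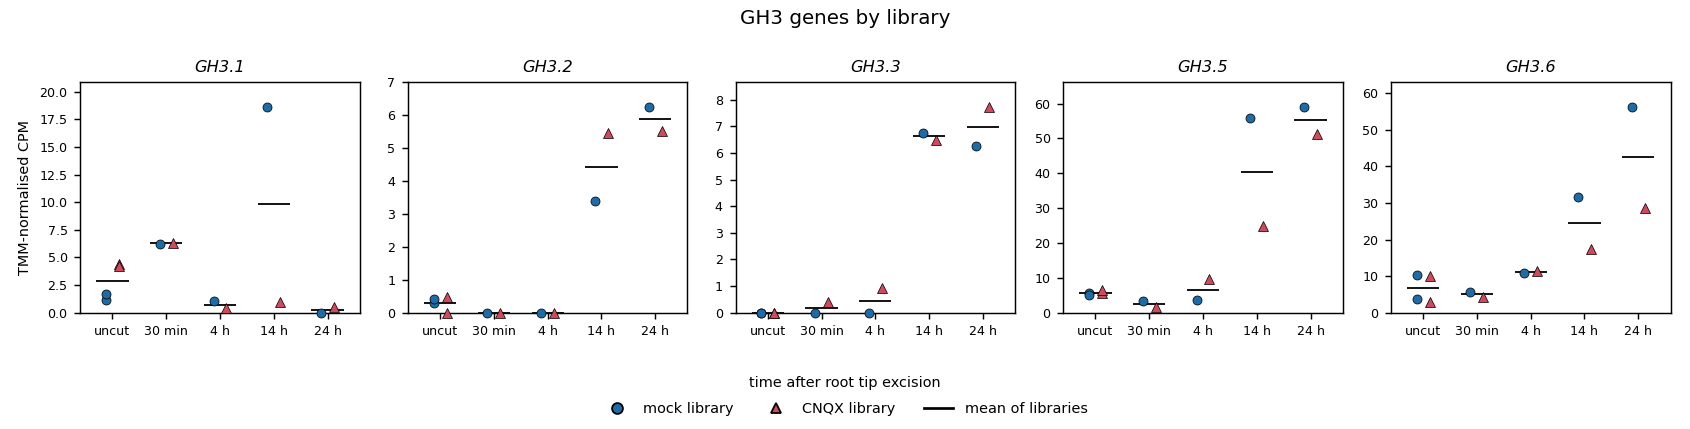
Level of each GH3 gene (TMM-normalised CPM, linear axis from 0) in every library by time after excision; circles are mock, triangles CNQX, and bars the mean of the libraries at that time. GH3.2, GH3.3, GH3.5 and GH3.6 sit higher in all 4 libraries at 14 h and 24 h than in any other library, and GH3.1 does not.

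Among the Aux/IAA genes, IAA28 had the largest log2 change of the 19 tested for excision and IAA2 was the one to pass at 30 min. IAA2, IAA14, IAA17 and IAA28, all with the degron core, were higher over the mean of the cut times than in uncut tips. Lower were IAA8, which has isoleucine in place of the valine, and IAA32 and IAA33, which have no such stretch. Counting GH3.3 and GH3.5 too, 6 of the 24 tested members were higher and 3 lower, that is 25% and 12.5%, beside 13.6% and 11.9% of all loci. At 30 min 1 member was higher (4.17%, beside 3.23% of all loci) and 0 were lower (1.2% of all loci). At 4 h again 1 was higher (4.17%, beside 2.59% of all loci) and 0 lower (0.386% of all loci). At 14 h 7 were higher (29.2%, beside 13.2% of all loci) and 0 lower (2.5% of all loci). At 24 h 11 were higher (45.8%, beside 21.3% of all loci) and 3 lower (12.5%, beside 12.1% of all loci). Late against early, 5 were higher (20.8%, beside 13.2% of all loci) and 0 lower (6.74% of all loci). The shares of members that were lower for excision and at 24 h were thus close to those of all loci. Among the members counted, GH3.2, GH3.3, IAA10 and IAA18 entered the test through cut libraries only, and IAA32 and IAA33 through uncut libraries only. The counts are therefore given as a description. The median log2 change of the 24 tested members was 0.50 for excision, 1.37 at 14 h and 0.46 at 24 h, where the median of all loci was 0.02, 0.00 and 0.00, and it stayed at these values with GH3.3 set to its bound. The counts rest in part on single libraries: without the mock 24 h library 5 members passed at 24 h, without the mock 14 h or CNQX 14 h library 1 and 4 passed at 14 h, and without the mock 30 min library 3 passed for late against early. For excision 5 passed without the mock 14 h, first CNQX uncut, CNQX 4 h or CNQX 14 h library. At 30 min 0 passed without the second mock uncut, the first CNQX uncut or either 30 min library, and 2 without a 4 h or 24 h library (either treatment). At 4 h 0 passed without the CNQX 4 h library, and 2 without the mock 4 h or second mock uncut library.

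IAA28 (AT5G25890, chr5:9033204-9035140), the repressor whose stabilised form blocks lateral root initiation, was at 4.38 and 4.68 CPM in the mock uncut libraries and 3.82 and 16.4 CPM in the CNQX uncut libraries. It was at 38.2 and 18.4 CPM at 30 min, 32.9 and 95.2 CPM at 4 h, 238 and 127 CPM at 14 h, and 172 and 159 CPM at 24 h. All 8 cut libraries lay above all 4 uncut libraries, and all 4 late above all 4 early ones. The change was 3.63 ± 0.47 for excision (adjusted p = 0.000527), 3.25 ± 0.55 at 4 h (adjusted p = 0.00888), 4.70 ± 0.54 at 14 h (adjusted p = 0.000128) and 4.58 ± 0.54 at 24 h (adjusted p = 6.83e-05). It rose further from early to late, by 2.01 ± 0.44 (adjusted p = 0.00706). Only the 4 h call depended on 1 library (CNQX 4 h; 1.85, adjusted p = 0.507 without it).

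IAA17 (AT1G04250, AXR3, chr1:1136078-1138663), whose gain-of-function mutant has agravitropic roots, was abundant throughout. It was at 30.6 and 95.8 CPM in the mock uncut and 47.7 and 85.0 CPM in the CNQX uncut libraries, at 120 and 88.2 CPM at 30 min, 101 and 249 CPM at 4 h, 262 and 279 CPM at 14 h, and 206 and 296 CPM at 24 h. The 4 late libraries lay above all uncut libraries, while the 30 min values overlapped them. It rose by 1.52 ± 0.35 for excision (adjusted p = 0.00954), 2.07 ± 0.45 at 14 h (adjusted p = 0.00699) and 1.93 ± 0.45 at 24 h (adjusted p = 0.00587). The 14 h call was lost without the mock 14 h or the CNQX 14 h library (adjusted p = 0.147 and 0.0513); the other 2 held without any 1 library.

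IAA2 (AT3G23030, chr3:8180646-8182095), an early auxin-induced gene, was the only member past the threshold at 30 min. It was at 14.6 and 5.96 CPM in the mock uncut and 19.1 and 23.0 CPM in the CNQX uncut libraries, at 40.4 and 65.1 CPM at 30 min, 23.6 and 33.2 CPM at 4 h, 61.3 and 33.8 CPM at 14 h, and 49.3 and 53.5 CPM at 24 h. All 8 cut libraries lay above the uncut ones, the mock 4 h library only narrowly. The change was 1.56 ± 0.32 for excision (adjusted p = 0.00571), 1.82 ± 0.41 at 30 min (adjusted p = 0.0283), 1.69 ± 0.41 at 14 h (adjusted p = 0.0140) and 1.79 ± 0.41 at 24 h (adjusted p = 0.00565). The excision call held without any 1 library. The 30 min call was lost without the mock 30 min, CNQX 30 min, second mock uncut or either CNQX uncut library (adjusted p = 0.124, 0.415, 0.0576, 0.0742 and 0.0553), the 14 h call without the mock 14 h library (0.97, adjusted p = 0.447), and the 24 h call without the mock 24 h library (adjusted p = 0.0542).

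IAA14 (AT4G14550, SLR, chr4:8347822-8350263), whose stabilised form abolishes lateral roots, was at 3.79 and 14.1 CPM in the mock uncut and 4.45 and 10.8 CPM in the CNQX uncut libraries, at 26.8 and 10.97 CPM at 30 min, 19.5 and 25.1 CPM at 4 h, 19.0 and 29.9 CPM at 14 h, and 28.5 and 28.1 CPM at 24 h. The CNQX 30 min library overlapped the uncut range and the other 7 cut libraries lay above it. It rose by 1.49 ± 0.43 for excision (adjusted p = 0.0245) and by 1.77 ± 0.54 at 24 h (adjusted p = 0.0243). Both calls were lost without the first mock uncut or the first CNQX uncut library (adjusted p = 0.0881 and 0.0956 for excision, 0.0625 and 0.0675 at 24 h). The excision call was also lost without the mock 30 min or CNQX 14 h library (0.0612 and 0.0620), and the 24 h call without either 24 h library (0.141 mock, 0.0701 CNQX).

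IAA10, IAA18 and IAA26 were low-count genes that passed at 24 h only. IAA10 (AT1G04100) was at 0.875 and 2.55 CPM in the mock uncut and 0 and 0 CPM in the CNQX uncut libraries, at 2.28 and 1.57, 1.03 and 0.455, 5.08 and 0.995, and 6.60 and 3.86 CPM at 30 min, 4 h, 14 h and 24 h. IAA18 (AT1G51950) was at 1.75, 0, 0 and 3.29 CPM in the same uncut libraries, then at 3.42 and 1.96, 4.11 and 8.197, 6.77 and 3.98, and 15.3 and 7.73 CPM. IAA26 (AT3G16500) was at 3.21, 0.426, 2.55 and 0.939 CPM uncut, then at 2.28 and 2.35, 1.03 and 1.82, 11 and 4.48, and 20.8 and 2.76 CPM. Both 24 h libraries lay above the uncut ones for IAA10 and IAA18, whereas for IAA26 the CNQX 24 h library lay inside the uncut range. The changes at 24 h were 4.04 ± 1.14 (adjusted p = 0.0185), 3.04 ± 0.90 (adjusted p = 0.0214) and 2.39 ± 0.84 (adjusted p = 0.0440). Without the mock 24 h library they were 4.31, 2.57 and 0.78 with adjusted p = 0.131, 0.230 and 0.772. IAA10 was also lost without the first mock uncut, second CNQX uncut or CNQX 24 h library (adjusted p = 0.0576, 0.0580 and 0.0767), and IAA26 was kept only without the first mock uncut, mock 4 h, CNQX 4 h or CNQX 24 h library (adjusted p = 0.0542 to 0.772 in the other 8 cases). IAA10 overlaps AT1G04105 on the other strand, and because the strand setting of the counting is not given in the sources used here, reads of the pair cannot be told apart.

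Of the members that fell, IAA7, IAA8 and IAA19 passed as lower at 24 h, and IAA8, IAA32 and IAA33 over the mean of the cut times. No member passed as lower at 30 min, 4 h or 14 h. IAA19 (AT3G15540, MSG2, chr3:5264001-5265695), which acts in tropic growth, was at 4.96, 8.51, 15.3 and 7.51 CPM in the 2 mock and 2 CNQX uncut libraries, then at 13.7 and 14.9 CPM at 30 min, 7.71 and 10.5 CPM at 4 h, 30.4 and 10.9 CPM at 14 h, and 1.74 and 1.66 CPM at 24 h. Both 24 h libraries lay below all 10 others. It fell by 2.33 ± 0.69 on the log2 scale at 24 h (adjusted p = 0.0211). IAA7 (AT3G23050, AXR2), whose stabilised form also disturbs gravitropism, was at 24.2, 27.7, 43.3 and 48.8 CPM uncut, then at 38.7 and 22.3, 32.4 and 51.9, 27.5 and 39.8, and 10.4 and 14.9 CPM. It too was lowest in the 24 h libraries, and fell there by 1.47 ± 0.41 (adjusted p = 0.0163). Without the mock 24 h library both calls were lost (IAA19 -2.18, adjusted p = 0.202; IAA7 -1.29, adjusted p = 0.193), and IAA19 also without the CNQX 24 h library (adjusted p = 0.0535).

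IAA8 (AT2G22670, chr2:9636346-9638761), an abundant member, was at 89.0, 119, 127 and 70.4 CPM in the 2 mock and 2 CNQX uncut libraries, then at 70.0 and 83.9 CPM at 30 min, 56.5 and 41.4 CPM at 4 h, 86.3 and 60.7 CPM at 14 h, and 26.7 and 54.6 CPM at 24 h. The uncut and cut ranges overlapped, with the 24 h libraries below all uncut ones. It fell by 0.81 ± 0.27 for excision (adjusted p = 0.0413) and by 1.33 ± 0.41 at 24 h (adjusted p = 0.0259). The first call was kept only where the library left out was the first mock uncut, second CNQX uncut, mock 4 h or CNQX 24 h one (adjusted p = 0.0557 to 0.203 in the other 8 cases). The second was lost without the mock 24 h or the first CNQX uncut library (-0.78 with adjusted p = 0.377, and adjusted p = 0.0642).

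IAA32 and IAA33 are degron-less members. IAA32 (AT2G01200) was at 6.13, 8.09, 5.73 and 20.19 CPM uncut, then at 0 and 1.96, 3.597 and 2.28, 1.69 and 2.49, and 1.74 and 3.86 CPM at the 4 times. All 8 cut libraries lay below all 4 uncut ones, and the gene fell by 2.24 ± 0.55 for excision (adjusted p = 0.0121), a call lost without the second CNQX uncut library (-1.70, adjusted p = 0.0849). IAA33 (AT5G57420) was at 4.96, 0.852, 5.73 and 2.82 CPM uncut, then at 0.569 and 0, 0.514 and 0.455, 0 and 1.49, and 0.347 and 3.31 CPM. Its groups overlapped, and the fall of 2.64 ± 0.86 (adjusted p = 0.0392) was kept only without the second mock uncut, mock 30 min, mock 4 h or CNQX 24 h library (adjusted p = 0.0505 to 0.339 in the other 8 cases). IAA32 overlaps AT2G01210 on the other strand, with the limit given for IAA10.

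**Figure D2:**
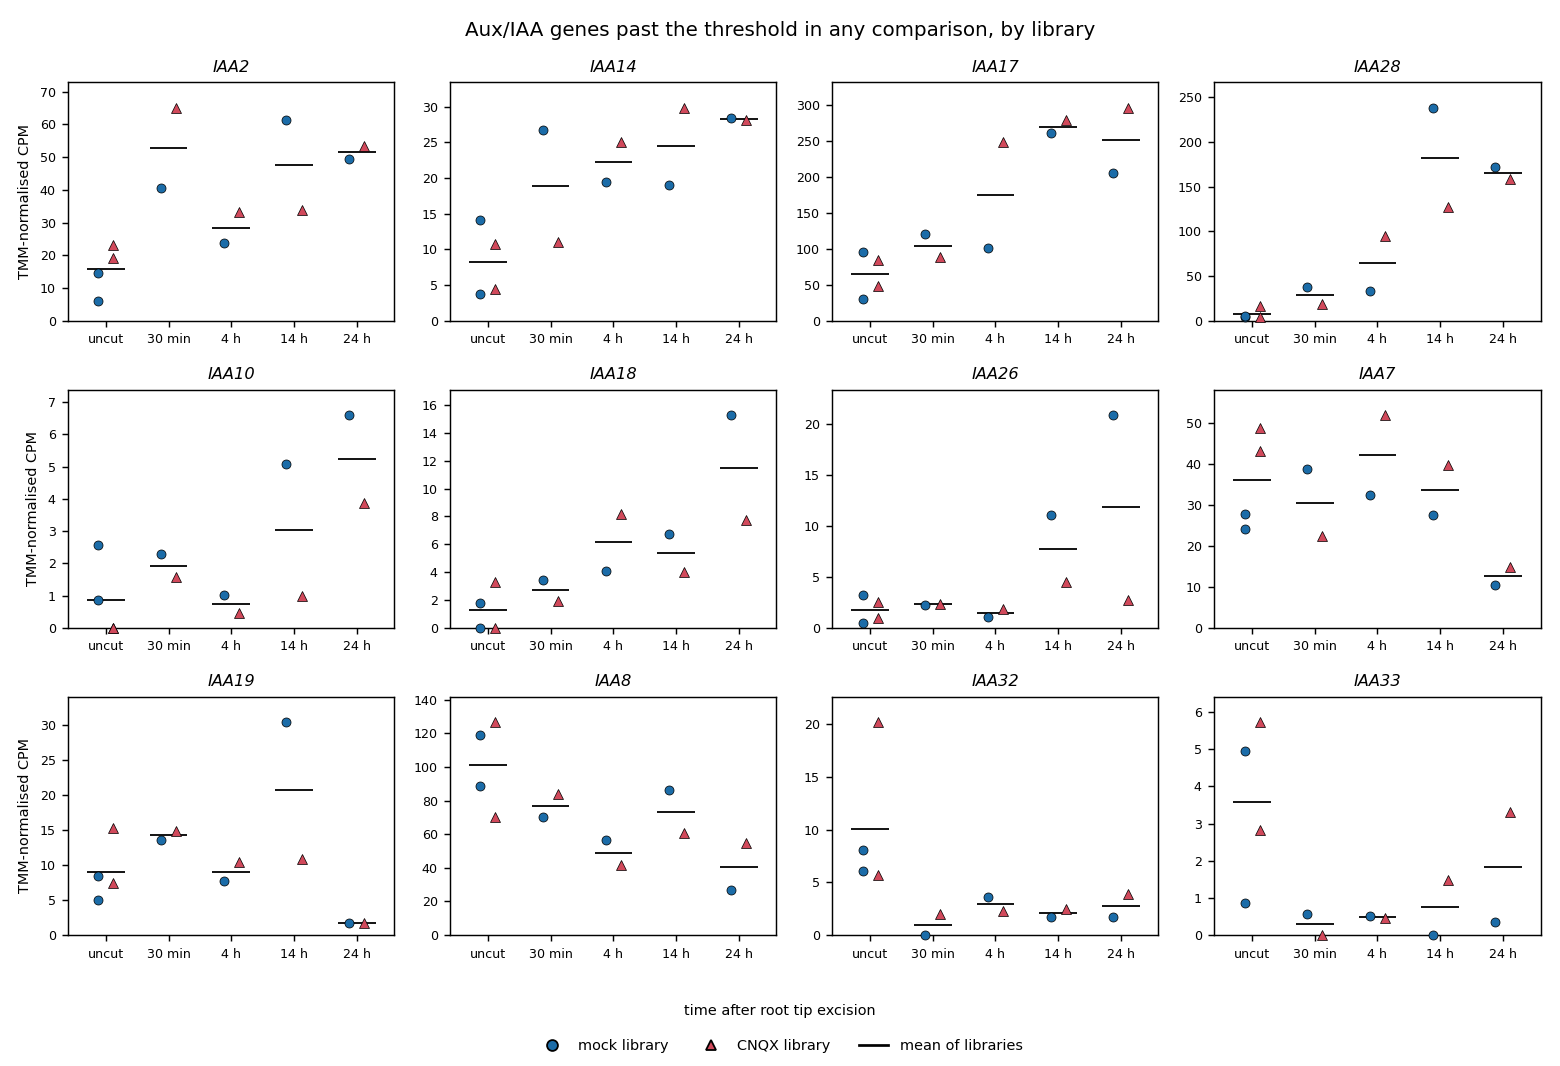
Level of the 12 Aux/IAA genes that passed any comparison (TMM-normalised CPM, linear axes from 0, a separate scale for each gene) in every library by time after excision; circles are mock, triangles CNQX, and bars the mean of the libraries at that time. IAA28 climbs from at most 16.4 CPM in uncut tips to between 127 and 238 CPM in the late libraries, and IAA19 is lowest in both 24 h libraries.

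Of the 24 tested members, 8 passed no comparison in the main fit: IAA1, IAA4, IAA9, IAA11, IAA12, IAA13, IAA16 and GH3.1. IAA16 was at 129 to 300 CPM in cut and 55.3 to 134 CPM in uncut libraries, ranges that overlapped. IAA16 and IAA11 passed for excision under some of the other settings given at the end. IAA9 (AT5G65670), whose tomato counterpart acts in leaf and fruit development, was the most abundant of these 8. It overlaps a long non-coding RNA gene, AT5G09425, on the other strand, and IAA11 and IAA13 overlap protein-coding genes there, so the limit given for IAA10 holds for these 3 as well. It was at 171, 245, 186 and 155 CPM in the 2 mock and 2 CNQX uncut libraries, then at 230 and 236 CPM at 30 min, 234 and 291 CPM at 4 h, 395 and 228 CPM at 14 h, and 233 and 226 CPM at 24 h. The mock 14 h library was the highest, and the other 7 cut libraries lay between 226 and 291 CPM, overlapping the uncut range. The 10 untested members (IAA3, IAA5, IAA6, IAA15, IAA20, IAA27, IAA29, IAA30, IAA31 and IAA34) stayed low: 9 of them never had more than 12 counts in a library, and IAA27 had at most 18, at 7.61 CPM in the mock 14 h library.

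The order of the levels changed with time. Per kilobase of exon, the highest mean levels in uncut tips were those of IAA9 (88.5 CPM per kb, range 72.7 to 114), IAA8 (49.2, range 34.2 to 61.5), IAA17 (49.2, range 23.3 to 72.7) and IAA16 (46.8, range 27.3 to 66.3), and the ranges of the last 3 overlapped. In the late libraries IAA17 led with 198 CPM per kb (range 156 to 225), ahead of IAA9 (126, range 106 to 185), IAA28 (125, range 91.3 to 171) and IAA16 (81.5, range 65.0 to 94.8). Neighbours in that order overlapped in their ranges. IAA28 moved from rank 13 of the 34 members in uncut tips (5.27 CPM per kb) to rank 3. GH3.5 and GH3.6 moved from ranks 18 and 17 (2.43 and 2.91 CPM per kb) to ranks 8 and 9 (20.3 and 14.4 CPM per kb).

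Grouped by the 5-residue core, 12 of the 17 members with it were tested. Of these, 4 were higher and 0 lower over the mean of cut times (13.6% and 11.9% of all loci), with a median log2 change of 0.98. Of the 12 without the core 7 were tested, and 0 were higher and 3 lower, with a median of -0.81. Of these 3, IAA32 and IAA33 reached 10 counts in uncut libraries only and so entered the test through the group in which they were high. Among the tested members without the core, IAA8, IAA10, IAA11, IAA12 and IAA13 carry its first 4 residues. Only IAA32 and IAA33 have no such stretch, so this grouping does not separate members with a degron from members without one. At 24 h the counts were 6 higher and 2 lower with the core and 1 higher and 1 lower without it, beside 21.3% and 12.1% of all loci. The 5 GH3 genes had medians of 2.76 at 14 h and 3.25 at 24 h, with GH3.3 at its bound as with its fitted value, and for late against early the median was the value of GH3.5. The difference between the groups with and without the core was not tested. IAA2 and IAA7, on the same stretch of chromosome 3, passed at 24 h in opposite directions.

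**Figure D3:**
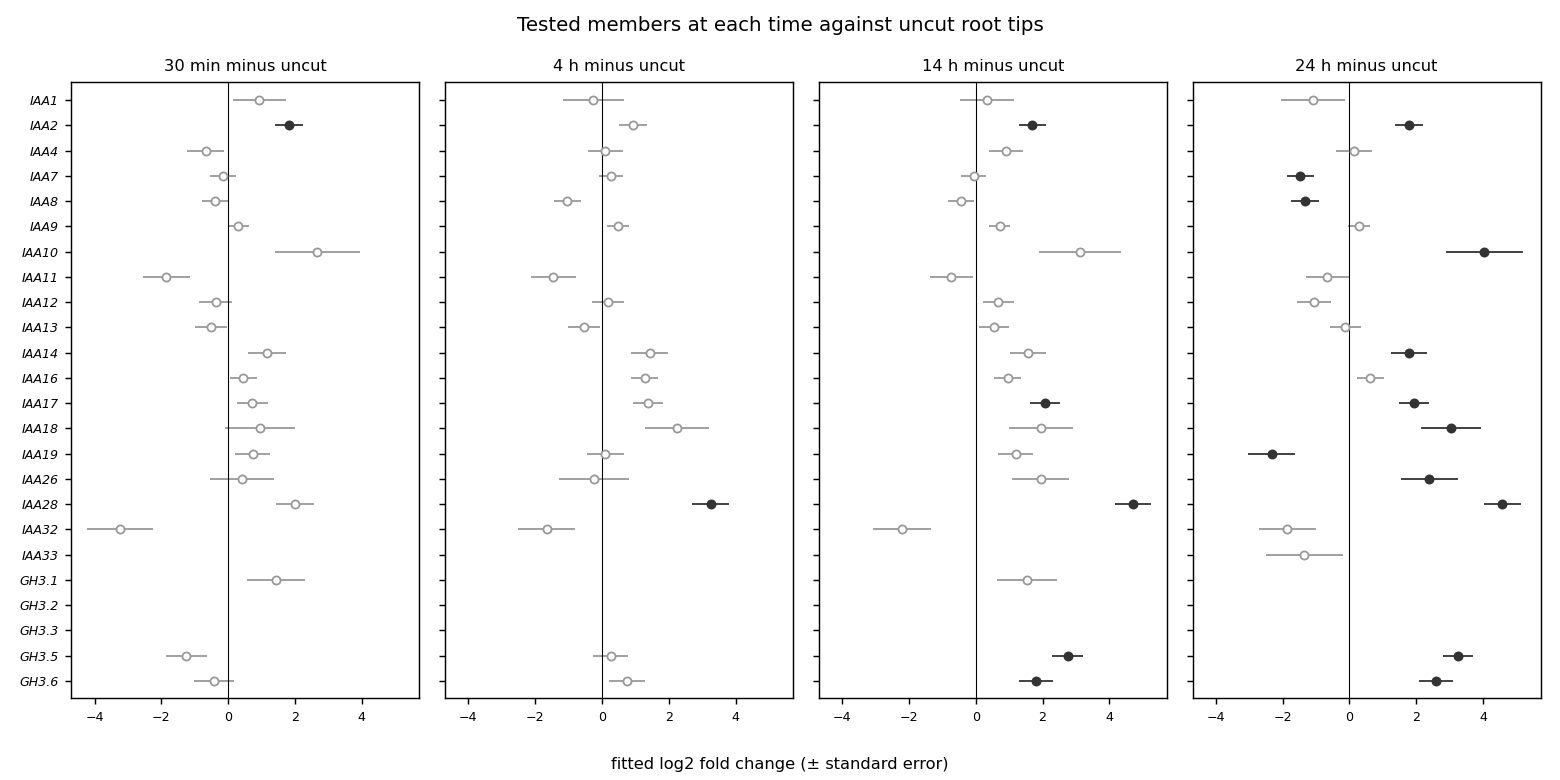
Fitted log2 fold change (x axis, with standard error bars) of the tested members at each time against uncut tips, with filled points where the adjusted p was below 0.05; a member with 3 or fewer summed counts on either side is left out of that panel. IAA2 is the filled point at 30 min, IAA28 the one at 4 h, and GH3.5, GH3.6, IAA2, IAA17 and IAA28 are filled at both later times.

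Cell type markers also differed between uncut and cut roots, with a course that varied from list to list. The root cap list (6 genes) summed to 55.1 to 183 CPM in uncut libraries and 7.47 to 28.8 CPM in cut ones, and its members SMB and FEZ were at 0 in every library at 30 min and 4 h. The 8 Casparian strip genes, which mark differentiated endodermis, summed to 3.82 to 8.94 CPM uncut, 4.56 to 5.49 CPM at 30 min, 8.22 to 26.9 CPM at 4 h, 259 to 552 CPM at 14 h and 72.2 to 187 CPM at 24 h. The 3 photosynthetic genes went from 3.76 to 7.00 CPM uncut to 53.3 to 158 CPM at 14 h and 129 to 384 CPM at 24 h. The 4 dividing cell genes went from 78.2 to 129 CPM uncut to 1.37 to 7.71 CPM at 4 h, 34.3 to 38.9 CPM at 14 h and 11.8 to 53.0 CPM at 24 h. The 6 stem cell niche genes went from 98.0 to 153 CPM uncut to 49.4 to 79.2 CPM at 30 min, 98.8 to 102 CPM at 4 h, 94.6 to 102 CPM at 14 h and 74.0 to 97.7 CPM at 24 h. That sum hides members that went opposite ways. PLT1, PLT2 and BBM were lower for excision, PLT1 was at 0 in every library at 14 h, and AGL42 was higher at 24 h. The median log2 change of the tested niche genes was -2.38 at 14 h and -2.28 at 24 h. The 6 epidermis and root hair genes summed to 47.0 to 85.9 CPM uncut, 173 to 194 CPM at 14 h and 44.1 to 112 CPM at 24 h. Within that list COBL9, RSL4 and EXPA7 were higher at 14 h and WER was lower (log2 changes of 3.79, 5.36, 7.07 and -6.63, adjusted p = 0.00316, 0.000213, 0.00011 and 0.000981). The 6 vascular genes summed to 28.6 to 65.6 CPM uncut and 85.6 to 120 CPM at 14 h, and at 43.1 to 62.9 CPM were back inside the uncut range at 24 h. The part of these cell types in the late GH3 and Aux/IAA levels was not tested.

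**Figure D4:**
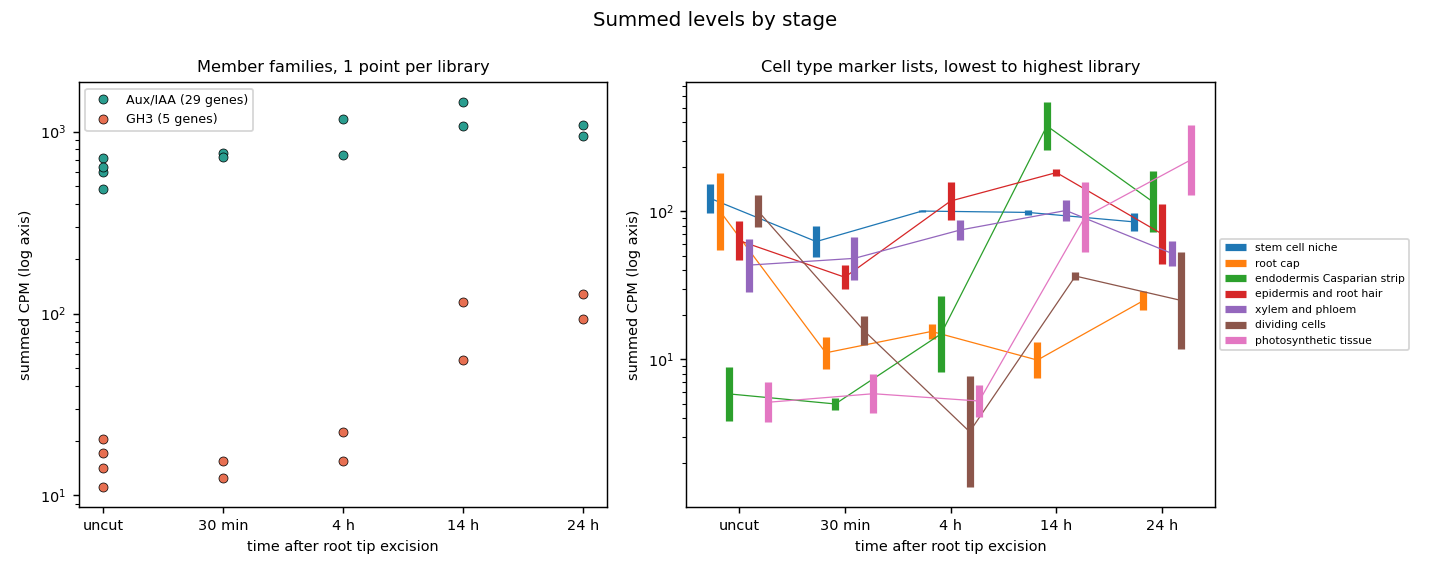
Summed CPM on log axes by time after excision, for the 29 Aux/IAA and the 5 GH3 genes in each library (left) and for 7 marker lists from the lowest to the highest library (right, lines join the geometric middle of each range). The GH3 sum and the Casparian strip and photosynthetic lists are higher in every library at 14 h and 24 h than in any uncut or 30 min library.

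No CNQX effect on a member was detectable with these libraries. None of the 24 tested members passed, nor did any of the 16820 loci (0% in each of the 3 CNQX comparisons), by edgeR, DESeq2 or limma-voom. At an unadjusted p below 0.05, edgeR's quasi-likelihood test had 629 loci for CNQX in uncut tips, 327 in cut roots and 390 for the difference between them; DESeq2 had 481, 245 and 314, and limma-voom 636, 571 and 471. The members among them by edgeR were 2, 0 and 0. IAA1 (AT4G14560) was at 1.75 and 0.852 CPM in mock and 12.1 and 4.70 CPM in CNQX uncut tips, without overlap (log2 change 2.58 ± 0.99, adjusted p = 0.978). IAA10 had 9 counts over the mock and 0 over the CNQX uncut libraries, at least 1.92-fold lower (adjusted p = 0.978).

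The intervals were wide. Their limits reached -1.53 in cut roots, 2.77 in uncut tips and -3.19 for the difference on the log2 scale. They are given for GH3.5, GH3.6, IAA28, IAA17 and IAA2 and not for the low-count members. In cut roots the CNQX effect over the 4 times was -0.30 for GH3.5 (95% interval -1.20 to 0.61), -0.58 for GH3.6 (-1.53 to 0.37), -0.16 for IAA28 (-1.11 to 0.80), 0.37 for IAA17 (-0.47 to 1.20) and 0.11 for IAA2 (-0.64 to 0.86) on the log2 scale. In uncut tips it was 0.21 for GH3.5 (-1.12 to 1.54), -0.19 for GH3.6 (-1.62 to 1.24), 1.20 for IAA28 (-0.37 to 2.77) and 0.08 for IAA17 (-1.09 to 1.25). The difference between the effects in cut and in uncut roots was -0.50 for GH3.5 (-2.12 to 1.11) and -1.36 for IAA28 (-3.19 to 0.48). Cut plants had 1 h on CNQX and were then moved to fresh medium, while uncut plants stayed on their CNQX plates for 14 h. Excision and length of exposure therefore cannot be told apart in this difference. The median effect over the 24 tested members was 0.14 in uncut tips, 0.06 in cut roots and -0.18 for the difference. Time by time, the log2 ratio of the CNQX to the mock library (with 1 CPM added to each) was -1.01, 1.51, -0.90 and -0.12 for IAA28 at 30 min, 4 h, 14 h and 24 h, and -0.78, 1.20, -1.13 and -0.20 for GH3.5. Both genes were thus higher in the CNQX library at 4 h and lower at the other 3 times; each time rests on 1 library per treatment and has no replicate check.

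**Figure D5:**
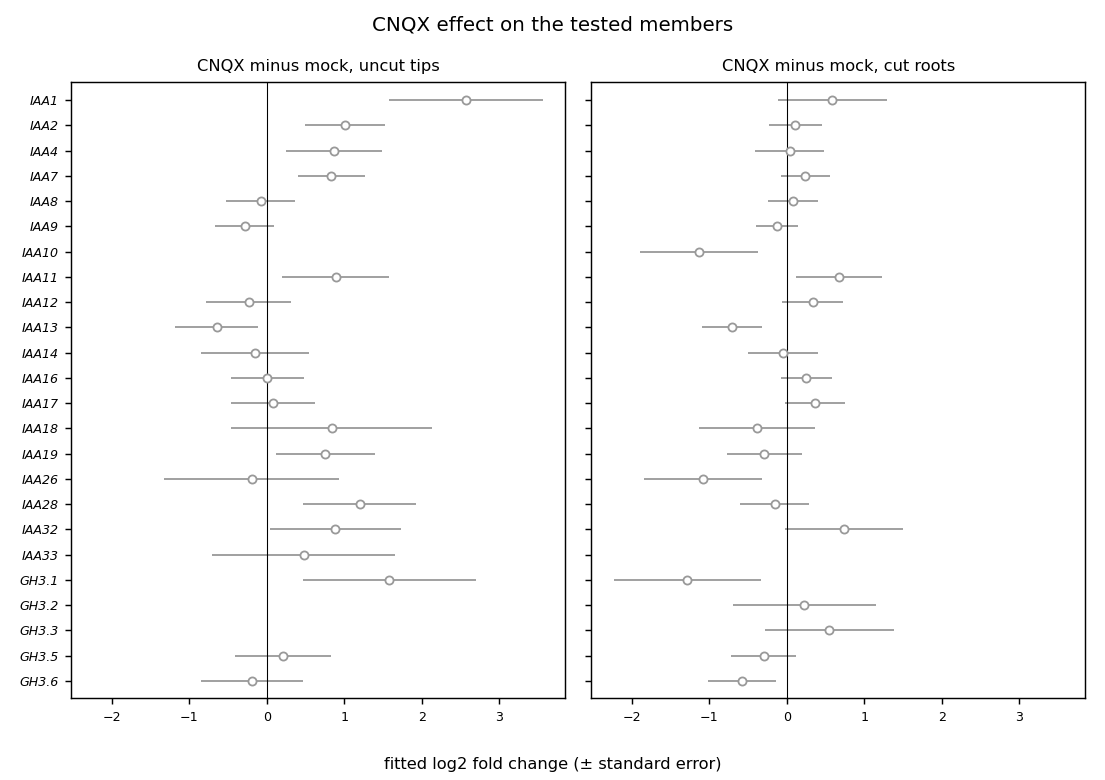
Fitted log2 fold change of CNQX against mock (x axis, with standard error bars) in uncut tips (left) and over the 4 cut times (right) for the tested members, leaving out those with 3 or fewer summed counts on either side. No point is filled, since no member had an adjusted p below 0.05.

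Receptors, ARFs and corepressors of the auxin pathway were read from the same fit. Of the 6 TIR1/AFB receptors, all tested, 1 was higher and 2 lower for excision, beside 13.6% and 11.9% of all loci. AFB4 rose early, by 2.95 ± 0.34 at 30 min (adjusted p = 0.000452), while AFB1 fell by 3.298 ± 0.56 at 24 h (adjusted p = 0.000846); both calls held without any 1 library. TIR1 was 0.68 lower on the log2 scale for excision (adjusted p = 0.0474), a call lost in 8 of the 12 fits that left out 1 library (adjusted p up to 0.176). Of the 5 activating ARFs, 0 were higher and 2 lower for excision (the same shares of all loci apply): ARF8 by 1.31 ± 0.23 (adjusted p = 0.00260), which held without any 1 library, and ARF6 by 0.83 ± 0.24 (adjusted p = 0.0231), which was lost in 4 of 12 such fits (adjusted p up to 0.0817). ARF5 (MONOPTEROS), which is needed for the embryonic root, was at 15.9 to 32.8 CPM uncut and 0.784 to 2.28 CPM at 30 min, and fell by 3.93 ± 0.76 (adjusted p = 0.0139; 0.296 without the CNQX 30 min library). Of the 10 repressing ARFs, 8 were tested and 0 passed for excision; at 24 h ARF1 and ARF4 were higher by 1.41 ± 0.40 and 2.09 ± 0.53 (adjusted p = 0.0180 and 0.00989), both lost without the mock 24 h library and ARF1 also without the first mock or first CNQX uncut library (adjusted p up to 0.224 and 0.265). None of the 5 TPL/TPR corepressors passed for excision or at any time against uncut roots by edgeR's test, with 0, 1, 0 and 0 of them at an unadjusted p below 0.05 at 30 min, 4 h, 14 h and 24 h.

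Genes that act beside the GH3 enzymes or downstream of ARFs were also read. GH3.17, another auxin-conjugating enzyme and the only tested one of 3, rose by 1.44 ± 0.37 for excision (adjusted p = 0.0154; at most 0.0703 with 1 library left out) and by 2.26 ± 0.47 at 24 h (adjusted p = 0.00320; 0.132 without the mock 24 h library). The amidohydrolases IAR3 and ILR1, which release auxin from conjugates, rose at 30 min by 2.10 ± 0.35 and 1.71 ± 0.36 (adjusted p = 0.00556 and 0.0201), calls that were lost without either 30 min library and, for ILR1, also without the first mock or second CNQX uncut library (adjusted p up to 0.162 and 0.377). IAR3 was also higher for excision (1.37 ± 0.27, adjusted p = 0.00456) and at 24 h (1.47 ± 0.35, adjusted p = 0.00714; 0.337 without the mock 24 h library). ILR1 was lower at 14 h (log2 change -1.59 ± 0.44, adjusted p = 0.0257), a call lost without either 14 h library or the first CNQX uncut library (adjusted p up to 0.35), and lower for late against early (-1.43 ± 0.33, adjusted p = 0.00871; 0.0672 without the mock 14 h library). Of 16 other auxin-induced targets 9 were tested, and 5 were higher at 14 h (SAUR76, LBD16, LBD17, GATA23 and PUCHI) and 0 lower, beside 13.2% and 2.5% of all loci. These 5 had 0 or 1 counts over the 4 uncut libraries, so they entered the test through the cut libraries in which they were high, and their number is given as a description. SAUR76 had 1 count over the uncut libraries and 34.3 to 42.3 CPM at 14 h (ratio 366, 95% counting interval 64.9 to 14550, adjusted p = 7.82e-05). The lateral root regulators LBD17 and GATA23 had 0 uncut counts and were at least 48.4-fold and 28.2-fold higher (adjusted p = 0.00265 and 0.00378). The SAUR76 call held without any 1 library. Without the mock 14 h library LBD16, LBD17, GATA23 and PUCHI did not pass (adjusted p = 0.280, 0.0902, at most 0.119, and 0.396), GATA23 was also lost without the CNQX 14 h library, and LBD16 and PUCHI did not pass with DESeq2. At 24 h 4 of the 9 were higher, SAUR76, LBD16, LBD17 and PUCHI, and 2 lower, TMO5 and HAT2, beside 21.3% and 12.1% of all loci, while GATA23 had 0 counts in both libraries. The SAUR76, LBD16 and LBD17 calls at 24 h held without any 1 library, and the other 3 were lost without the mock 24 h library (adjusted p up to 0.119 for PUCHI, 0.161 for TMO5 and 0.178 for HAT2). PUCHI was also lost without the second CNQX uncut or CNQX 24 h library, TMO5 without the first mock uncut or CNQX 24 h library, and LBD16 and PUCHI with DESeq2.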

How the data were processed

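The authors deposited raw, unnormalized read counts for 32833 loci in 12 libraries made with the NuGEN Ovation amplification and low-input kits, per the labels' protocols. HISAT2, DESeq2 and TAIR10 are named per the submitters' processing notes; their versions are, like the counting tool and its strand setting, not given in the sources used here. The joint table of counts equalled the deposited per-sample counts in all 12 libraries, and their summary rows (not unique, no feature, not aligned) stayed out of library sizes and tests.

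Loci were filtered (filterByExpr, minimum count 10; 16820 kept), scaled with TMM and fitted with edgeR 4.0.16 (R 4.3.3) in 1 model with 5 stages and a CNQX effect in uncut and in cut roots (7 coefficients, 5 residual degrees of freedom); standard errors are the log2 fold change over the root of F. The model pools treatments at each time, and groups of 1 library take their spread from the whole fit. Nothing in the labels says that libraries came from separate batches of plants beyond the separate sets of uncut roots, so p-values measure the spread between these libraries. Among cut roots that spread is how the difference between CNQX and mock varies from time to time, since no group there holds replicates. A CNQX effect that changed with time would count as spread in the model and was not tested. The 2 uncut libraries of a treatment differed beyond sampling noise (chi-square per degree of freedom 17.4 for mock and 17.1 for CNQX). The counting intervals given with ratios of counts, and the floors (3 counts), cover counting error only. The intervals given for CNQX effects come from the edgeR fit and include its spread between libraries. The fitting steps were tested on simulated data.

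The members, the pathway and marker lists and the tests were chosen with earlier results of these data known. Every member past the threshold is described in all libraries, with the most abundant one that passed nothing; of the other lists at most 3 genes are named per comparison by lowest p, beside genes named because a count was small, after their values were seen. The search for 4 core residues was added after the 5-residue core was counted. Alternatives were RLE size factors, DESeq2 1.42.0, limma-voom (limma 3.58.1), no filter, a stricter filter (10 counts in 6 libraries), organelle loci left out, a replicate block and each library left out. Sequences are from RefSeq's TAIR10.1 genome and annotation, in which 32548 loci and all 34 members were matched.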

Additional observations from a re-analysis of the deposited data

How the results depend on the processing

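No result changed direction under any alternative. The filter was rerun in each fit: the main fit tested 24 members, those with 1 library left out 25 to 27, and the one with no filter 34. The number of members past the threshold for excision (9) was 5 to 12 with 1 library left out and 6 to 13 under the other settings. There, RLE added GH3.6, and DESeq2 and no filter added GH3.6, IAA16 and IAA18. With limma-voom GH3.6, IAA10, IAA11, IAA16 and IAA18 were added. The stricter filter added GH3.6 and IAA11, leaving out organelle loci IAA11, and the replicate block IAA16. DESeq2 lost IAA33 and limma-voom lost GH3.5, beside losses given below for the stricter filter and the replicate block. At 30 min (1) the number past the threshold was 0 to 2 with 1 library left out, 3 with DESeq2 and 3 with no filter, the added genes being IAA28 and IAA32. At 4 h (1) it was 0 to 2 with 1 library left out, 3 with no filter and 4 with the replicate block. At 14 h (7) it was 1 to 7, at 24 h (14) 5 to 14, and for late against early (5) 3 to 7 with 1 library left out. The stricter filter left 15 members to test, of which 9 passed at 24 h and 3 for late against early; GH3.2, GH3.3, IAA10, IAA18, IAA26, IAA32 and IAA33 were not among those tested. The 3 CNQX comparisons gave 0 members under every setting; with no filter 10, 10 and 2 of all loci passed.

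All 8 cut libraries and the first uncut library of each treatment are numbered 1, and the other 2 uncut libraries are numbered 2. The labels do not say that a number marks a shared batch, and only mock and CNQX uncut roots share both numbers, so the numbers were not taken to pair the samples. The deviations of same-numbered uncut libraries correlated at 0.357 across 16820 loci. With the replicate block, 6 members passed for excision, 1 at 30 min, 4 at 4 h, 6 at 14 h, 13 at 24 h and 7 for late against early. It ended the calls of IAA8, GH3.3, GH3.5 and IAA32 for excision (adjusted p = 0.0594, 0.0897, 0.0899 and 0.104), IAA2 at 30 min (0.0749), IAA2, GH3.2 and GH3.6 at 14 h (0.0528, 0.0729 and 0.0924), and IAA18 and IAA26 at 24 h (0.0629 and 0.168). It added IAA16 for excision, at 4 h, at 14 h and at 24 h, IAA28 at 30 min, IAA14 at 4 h and 14 h, IAA17 at 4 h and for late against early, and IAA26 for late against early. Depth limits the low members: a floor of 3 counts is 0.875 to 1.91 CPM in a library.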
